A study of Mus musculus with 12 samples.

Results

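The replication-type histone genes are the clustered histone genes named Hist1h to Hist4h, and they were taken as every gene of the count table whose symbol begins that way. There were 32 such genes among the 15855 of the table, of which 6 encode linker histone H1, 4 encode H2A, 8 encode H2B, 5 encode H3 and 9 encode H4. They were measured by RNA sequencing in epithelial cells of the mouse small intestine, sorted as live cells carrying the epithelial surface protein EpCAM. The mice were C57BL6/J, male and 8 to 12 weeks old by the methods of the study, and their cells were taken 24 h after surgery. The surgery was either pMCAO (n = 5), the permanent occlusion of the middle cerebral artery, a model of stroke in which that artery stays blocked, or sham (n = 7), which left out the occlusion. No transgene was named for either group, and the labels number every sample as a separate biological replicate. The comparison asks which epithelial transcripts differ after a stroke.

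Histone proteins package DNA into nucleosomes, whose core holds H2A, H2B, H3 and H4, while H1 binds the DNA between them. The replication-type genes are transcribed mainly in S phase, when new DNA must be packaged, and most of their mRNAs end in a short stem-loop in place of a poly(A) tail. In the small intestine DNA replicates in the crypts, whose cells move up and mature on the villi, and differentiated cells are known to make poly(A)-tailed transcripts from some of these genes. Ribosomal RNA was removed from total RNA without selection for poly(A) tails, so both forms could be counted, and the counts do not tell them apart.

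The 32 genes were 30 matched by gene ID and 2 matched by symbol (Hist1h2bh and Hist1h2bm) among 70 genes named in this way in the GENCODE M21 annotation of GRCm38. The other 38 were not analysed here. Of the 32, 27 lie on chromosome 13, 3 on chromosome 3, 1 on chromosome 11 (Hist3h2a) and 1 on chromosome 6 (Hist4h4). The stem-loop was searched for in the longest transcript of each gene as GG, any 2 bases, CTTTT, any base, AG, any 2 bases and CC, read without a gap on the transcribed strand, and was found in 23 of the 32. It was also found in 28 of 21884 other protein-coding genes (0.13%). Some of the histone genes without a match have short annotated transcripts, such as Hist1h4k (312 nt) and Hist1h2bl and Hist1h2bn (381 nt each). For these the lack of a match may reflect the annotation and not the gene. Matches in H2A and H2B genes, such as Hist3h2a, Hist1h2ac and Hist1h2be, are not printed. The stem has 6 bases on each side and the loop 4 bases. They are shown for the genes with the most counts of the H1, H3 and H4 classes and for both H4 forms. Each is given with 5 bases on either side, in the 5′ to 3′ direction of the transcript, with the stem in capitals.
Hist1h1c: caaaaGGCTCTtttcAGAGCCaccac
Hist1h1e: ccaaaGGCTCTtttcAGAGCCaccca
Hist1h3e: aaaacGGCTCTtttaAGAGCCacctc
Hist2h3c2: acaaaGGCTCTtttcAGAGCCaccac
Hist1h4c: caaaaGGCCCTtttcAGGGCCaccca
Hist1h4d: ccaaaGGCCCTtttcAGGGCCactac
Hist2h4: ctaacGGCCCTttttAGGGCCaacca
Hist1h4j: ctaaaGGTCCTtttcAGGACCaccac
In classes other than H4, 16 of 16 matches had the stem GGCTCT. Of the 7 H4 matches, 6 had GGCCCT and 1, in Hist1h4j, had GGTCCT. Both sides of each stem changed together, as the printed letters show. The letters were not found in the longest transcripts of the H2B genes Hist1h2bc and Hist2h2be, whose exons cover 1156 and 2620 nt.

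The annotated transcripts often ran well past the stem-loop. In 19 of the 23 genes more than 100 nt followed it, with a range from 11 nt (Hist1h2ab) to 4884 nt (Hist1h1d). The median was 454 nt, against 32 nt in the 20 matches among the 38 genes not analysed here, of which 3 had more than 100 nt. The 32 genes were also longer, with a median exon length of 874 nt (range 312 to 7425) against 470.5 nt (range 339 to 2212).

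Reads of 100 bases from one histone gene can match another. The longest transcript of each gene was therefore divided into all windows of 100 bases, and the share of windows also present in the transcript of another gene was computed. The median share was 17.5% for the 32 genes and 71.3% for the 38, and more than 50% was shared in 5 of 32 and 24 of 38. No window was shared in 6 of the 32, which included Hist1h4d, Hist2h4 and Hist2h2be. The share was 5.1% for Hist1h1c and 25.4% for Hist1h2bc, but 61.6% for Hist2h3c2, 62.1% for Hist1h2bl and 64.3% for Hist1h4k. Values of those last 3 genes are uncertain, since how the counting placed reads with several matches was not given in the sources used here. The same holds to a lesser degree for other genes with shared windows, such as Hist1h2bg (44.9%), Hist1h3e (42.9%), Hist1h4h (38.5%) and Hist1h3f (34.3%).

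**Figure D1:**
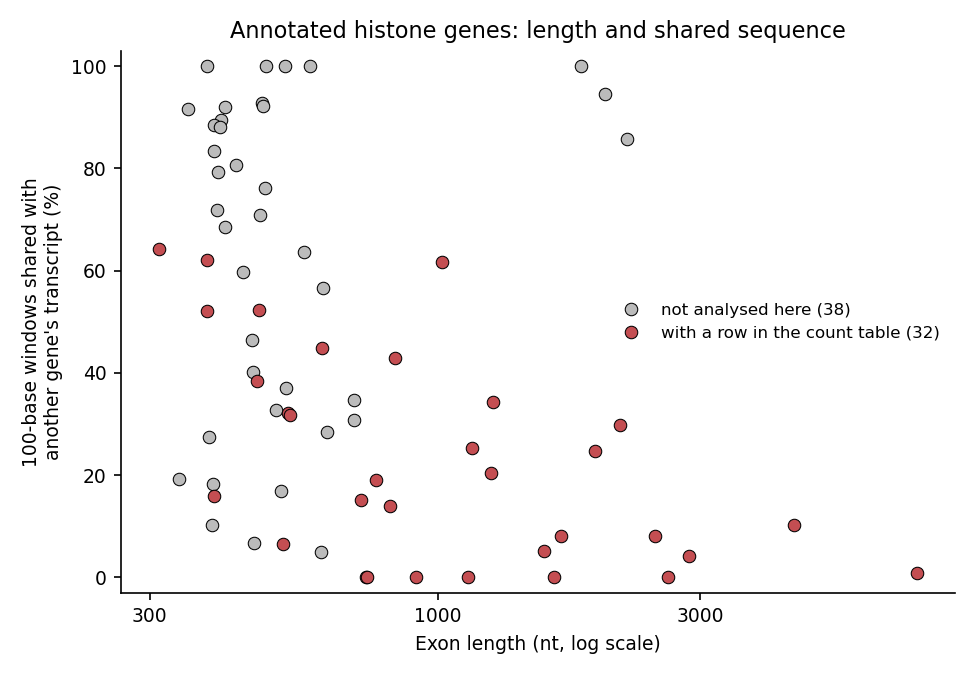
Exon length in nt (horizontal, log scale) against the percentage of 100-base windows shared with the transcript of another gene (vertical) for the 70 annotated histone genes, 1 point a gene, with red for the 32 in the count table and grey for the 38 not analysed here. The red points reach up to 7425 nt, and 5 of them lie above 50%, against 24 of the grey points.

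Some genes also overlapped another gene. Exons of Hist1h1e and Hist1h2be overlap each other on the same strand of chromosome 13, as well as Gm11398, and exons of Hist3h2a overlap Trim17 on the same strand, so their counts may not be separate. The strand setting of the counting was not given in the sources used here.

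Promoters were described from the RefSeq table (GRCm38.p6), which matched 27 of the 32 genes. Each was searched, on both strands, for the letters of 5 elements known from histone promoters, over 250 bases before and 50 bases after the start. The letters of the TATA box (TATAAA) stood in 55.6% of the 27 and in 14.2% of all 27025 promoters, and the CCAAT box (CCAAT) in 81.5% and 37.9%. Matches were counted at any position, for TATAAA from 190 bases before the start (Hist1h2bn) to 41 bases after it (Hist1h4a). Where the table lists several starts of a gene, only the first was counted, in these 27 genes and in all promoters alike. The octamer (ATTTGCAT) stood in 3 of 4 H2A and 2 of 6 H2B promoters and in 1.8% of all promoters. It also stood before the other listed start of Hist1h2be, the only one of the 27 genes with more than 1 start, which the count of H2B promoters leaves out. The H4 site (GGTCCG) stood in 7 of 8 H4 promoters and 8.4% of all, and the H1 box (AAACACA) in 5 of 6 H1 promoters and 7.1% of all. The 150 bases before the start are shown for abundant H1 and H4 genes and for an H2A gene with the octamer, in the direction of transcription, with each of these elements in capitals, also where they read on the other strand. They lie at chr13:23738657-23738806 (Hist1h1c, plus strand), chr13:23622559-23622708 (Hist1h1e, minus strand), chr13:23683960-23684109 (Hist1h2ac, minus strand), chr13:23698459-23698608 (Hist1h4c, minus strand) and chr13:23581418-23581567 (Hist1h4d, plus strand).
Hist1h1c: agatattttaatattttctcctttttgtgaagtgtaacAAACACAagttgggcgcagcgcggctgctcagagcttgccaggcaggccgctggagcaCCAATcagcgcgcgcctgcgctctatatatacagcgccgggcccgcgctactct
Hist1h1e: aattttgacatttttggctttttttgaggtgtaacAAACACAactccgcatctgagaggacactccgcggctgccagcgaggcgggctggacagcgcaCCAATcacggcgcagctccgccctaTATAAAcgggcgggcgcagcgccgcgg
Hist1h2ac: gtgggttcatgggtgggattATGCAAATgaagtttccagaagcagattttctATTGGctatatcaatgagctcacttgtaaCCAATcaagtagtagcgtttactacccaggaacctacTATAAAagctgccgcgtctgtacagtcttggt
Hist1h4c: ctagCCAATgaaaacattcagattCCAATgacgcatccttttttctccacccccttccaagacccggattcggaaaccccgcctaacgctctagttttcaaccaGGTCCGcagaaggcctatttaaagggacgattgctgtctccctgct
Hist1h4d: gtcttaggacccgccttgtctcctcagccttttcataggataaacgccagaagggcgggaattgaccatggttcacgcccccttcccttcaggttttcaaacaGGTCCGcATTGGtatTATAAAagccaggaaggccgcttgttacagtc
The H1 box, the CCAAT box and the start follow each other in the same order in both H1 promoters. The H4 site begins 46 bases (Hist1h4c) and 47 bases (Hist1h4d) before the start in the H4 promoters shown, 46 bases before it in Hist1h4i, and nearer to it in the other 4 that hold the site, from 5 bases (Hist1h4h) to 32 bases (Hist1h4k and Hist4h4). A match of letters is no measurement of binding.

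The depth behind the values differed between samples, and means are given ± SD. Total counts ranged from 7418730 to 31925579 per sample, and the 32 genes together took from 1196 counts (sham replicate 3) to 11214 (pMCAO replicate 3). That was from 0.0144% (95% Wilson interval 0.0137 to 0.0151) to 0.0351% (0.0345 to 0.0358) of a sample's counts. Levels are given in CPM, the counts per 1000000 of the sample's scaled total. On the unscaled total, 3 counts, the floor under which a gene cannot be told from 0, came to 0.094 to 0.404 CPM. Intervals and floors cover counting error only. Mitochondrial ribosomal RNA took from 14.6% to 54.5% of the counts, so totals were scaled with TMM factors, which are set by the bulk of the genes, unless stated otherwise. The libraries numbered 58 to 61, which are sham replicates 1, 2 and 3 and pMCAO replicate 1, stood apart from the other 8, as was known from earlier results of these data, and are marked where they bear on a value. Of the 384 values of the 32 genes, 24 were 0, and 19 genes had counts in every sample.

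Most of the histone signal came from a few genes. Per kb of exon, Hist1h2bc (H2B) was highest at 84.4 CPM per kb, the mean over 12 samples, followed by the linker histone gene Hist1h1c (31.7), the H4 gene Hist1h4d (14.9) and the linker histone gene Hist1h1e (10.7). The other 28 genes lay at or under 5.55 CPM per kb, the value of Hist1h4c. Hist1h2bc and Hist1h1c together held from 51.8% (95% Wilson interval 50.2 to 53.4, pMCAO replicate 5) to 74.5% (73.2 to 75.7, sham replicate 5) of the counts of all 32. Before division by length, 4 genes had a mean of 10 CPM or more, 16 had from 1 to under 10 and 12 had under 1.

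**Figure D2:**
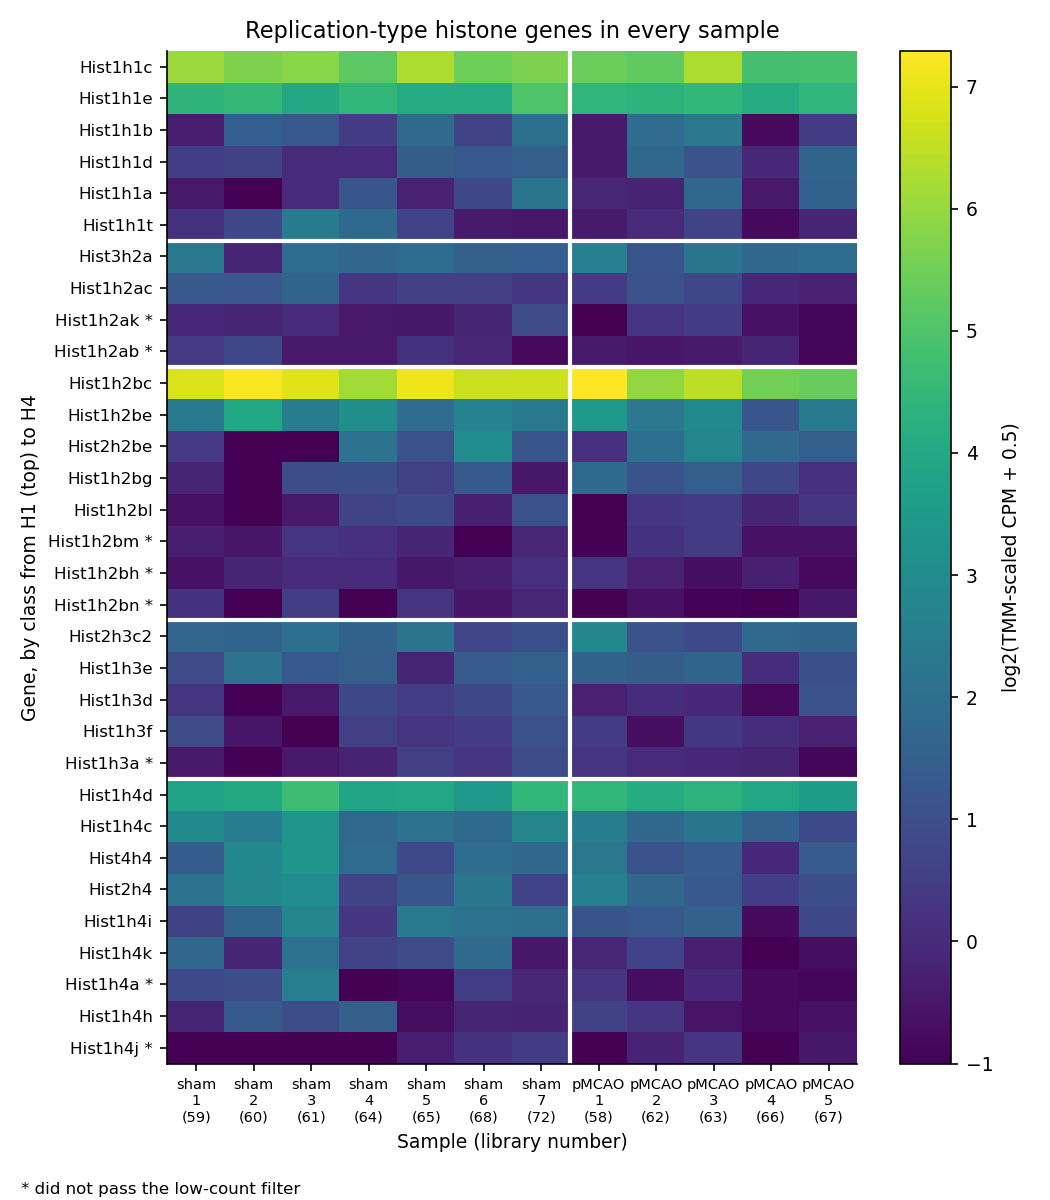
Levels of the 32 genes, as log2(TMM-scaled CPM + 0.5) in colour, in the 12 samples (columns, sham left and pMCAO right of the white line, library number in brackets), ordered by class and then by mean level, with a star where a gene did not pass the low-count filter. Hist1h2bc, Hist1h1c, Hist1h1e and Hist1h4d stay bright in every sample, while most other rows are dark and uneven.

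Of the 32 genes, 24 passed the low-count filter and were tested among 14462 genes in all. The 8 that did not pass were Hist1h2ab, Hist1h2ak, Hist1h2bh, Hist1h2bm, Hist1h2bn, Hist1h3a, Hist1h4a and Hist1h4j, each named because it was left out of the test. Their means over the 12 samples lay between 0.26 and 0.90 CPM. A gene was called where its adjusted p did not exceed 0.05 and its log2 fold change was 1 or more in size.

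Between pMCAO and sham, 0 of the 24 genes were called by limma-voom, where 0% of all genes tested were called. Of the 24, edgeR and DESeq2 also called 0, with 0 and 68 called among all genes. At an unadjusted p under 0.05, 0 of the 24 were higher in pMCAO (4.66% of all genes) and 2 were lower (3.77% of all genes). In 0 of the 24 did the values of the groups not overlap, against 0.505% of all genes. Of the 24, 9 had a log2 fold change above 0 and 15 below it, where 55.2% of all genes were above 0. The median was -0.19, beside 0.06 over all genes tested.

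Blocks of consecutive library numbers (58 to 61, 62 to 65, 66 to 68, and 72) entered a second fit, in which library 72 (sham replicate 7), being alone, adds nothing to the group estimate. With them, 0 of the 24 genes were called, against 0.325% of all genes. An unadjusted p under 0.05 was then reached by 0 genes in the higher direction (6.58% of all genes) and by 1 gene in the lower direction (6.17% of all genes). The median log2 fold change was -0.30, beside 0.01 over all genes. Within the 3 blocks that hold both groups, 2 genes were higher in pMCAO in each block (16.3% of all genes) and 4 were lower in each (14% of all genes). The only pMCAO sample of libraries 58 to 61 is replicate 1. The only sham sample of libraries 66 to 68 is replicate 6. Differences within these blocks, here and below, therefore rest on 1 animal in 1 of the groups.

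Among the linker histones, Hist1h1c (ENSMUSG00000036181, chromosome 13, 23738808 to 23740367, plus strand) is a somatic H1 gene. Its level in sham ranged from 36.1 to 77.0 CPM with a median of 50.1, and in pMCAO it was 42.0, 38.1, 76.7, 28.4 and 28.9 CPM. The pMCAO values spread over the whole sham range and below it. The means were 54.2 ± 13.8 CPM (n = 7) and 42.8 ± 19.8 CPM (n = 5), with a log2 fold change of -0.41 (95% interval -0.95 to 0.14, adjusted p 0.671).

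Hist1h1e (ENSMUSG00000051627, chromosome 13, 23620629 to 23622558, minus strand), another somatic H1 gene, was the steadiest of the abundant genes within the pMCAO group. In sham it ranged from 15.7 to 31.8 CPM with a median of 20.5, and in pMCAO it was 21.4, 20.1, 21.8, 17.1 and 21.3 CPM. Its log2 fold change was 0.02 (95% interval -0.40 to 0.44, adjusted p 0.987), so a change of 1 on the log2 scale lies outside the interval. Its sign turned with the test, to -0.04 by edgeR and -0.05 by DESeq2.

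The remaining H1 genes were low. Hist1h1a ranged from 0 to 4.08 CPM in sham and from 0.24 to 2.93 in pMCAO, and Hist1h1t, the testis-type H1 gene, from 0.22 to 4.83 and from 0.08 to 1.13. Over the 6 H1 genes, 3 log2 fold changes were above 0 and 3 below, from -0.50 to 0.29, and no adjusted p was under 0.671.

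In the H2A class, Hist3h2a and Hist1h2ac were tested. Hist3h2a (ENSMUSG00000078851, chromosome 11, 58954685 to 58956830, plus strand) ranged from 0.415 to 4.46 CPM in sham, with a median of 2.84, and was 5.64, 1.75, 4.04, 2.96 and 3.32 CPM in pMCAO. Hist3h2a differed by 0.24 on the log2 scale (SE 0.43, adjusted p 0.896) and Hist1h2ac by -0.34 (SE 0.55, adjusted p 0.881). The groups overlapped for both genes.

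The H2B gene Hist1h2bc (ENSMUSG00000018102, chromosome 13, 23684199 to 23692908, plus strand) held more counts than any other of the 32 genes. It ranged from 69.8 to 147 CPM in sham, with a median of 112, and was 156, 60.9, 87.4, 45.9 and 41.1 CPM in pMCAO. The highest pMCAO value was above all sham values and belonged to library 58, while 3 of the other 4 were below all sham values. The means were 111 ± 25.6 CPM (n = 7) and 78.4 ± 47.2 CPM (n = 5). The log2 fold change was -0.65 (95% interval -1.27 to -0.03), with an unadjusted p of 0.0421 by limma-voom and an adjusted p of 0.583, so it did not pass. Within libraries 58 to 61, 62 to 65 and 66 to 68 the difference was 0.33, -0.41 and -1.17, so its direction was not the same in each block.

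The other tested H2B genes were Hist1h2be, Hist1h2bg, Hist1h2bl and Hist2h2be. Hist2h2be, an H2B gene on chromosome 3 from 96221119 to 96223738, was 0 in 2 of 7 sham samples and reached 7.51 CPM in another, while pMCAO samples held 0.60, 3.6, 6.36, 3.04 and 2.34 CPM. It differed by 0.84 on the log2 scale (SE 0.82, adjusted p 0.791) by group alone and -0.13 with library-number blocks. That of Hist1h2bg was 0.93 (SE 0.69, adjusted p 0.714), the highest of the 24, and 0.41 with blocks. None of these passed the test in either fit.

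The H3 genes were all low. Hist2h3c2 (chromosome 3) ranged from 1.15 to 4.11 CPM in sham, and was 6.75, 1.59, 1.27, 3.12 and 2.68 CPM in pMCAO, with 61.6% of its windows shared with other genes. Hist1h3e ranged from 0.40 to 3.73 CPM in sham and from 0.56 to 2.67 in pMCAO. The log2 fold changes of the 4 tested H3 genes ran from -1.0 (Hist1h3f, SE 0.74) to 0.22 (Hist1h3e, SE 0.52), and no adjusted p was under 0.713.

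Of the 7 tested H4 genes, 6 had a log2 fold change below 0 and 1 above, with a median of -0.68. Hist1h4d (ENSMUSG00000061482, chromosome 13, 23581598 to 23582735, plus strand), the most abundant of them, was the exception. It ranged from 10.7 to 25.8 CPM in sham with a median of 15, and was 21.9, 17.1, 20.1, 15 and 11.6 CPM in pMCAO, all within the sham range. Its log2 fold change was 0.15 (95% interval -0.36 to 0.65, adjusted p 0.882), and 0.30, 0.32 and 0.31 within the 3 blocks.

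Hist1h4k (ENSMUSG00000064288, chromosome 13, 21750194 to 21750505, minus strand) had the lowest log2 fold change of the 24. It ranged from 0.22 to 3.86 CPM in sham, with a median of 1.39, and was 0.43, 1.10, 0.32, 0 and 0.11 CPM in pMCAO. All pMCAO values were under the sham median, but 2 sham samples, at 0.22 and 0.41 CPM, were under the highest pMCAO value. The log2 fold change was -2.37 (95% interval -4.39 to -0.34), with an unadjusted p of 0.025 by limma-voom and an adjusted p of 0.526. With blocks it was also -2.37, with an adjusted p of 0.249, and within the 3 blocks it was -1.95, -1.08 and -5.46. The last of these sets 0 and 3 counts in pMCAO replicates 4 and 5 against 124 in sham replicate 6 alone, so its size is uncertain. The whole gene had 283 counts over the 12 samples, and 64.3% of its windows are shared with other H4 genes.

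Hist1h4i (-1.09, SE 0.66), Hist1h4h (-0.75, SE 0.84), Hist4h4 (-0.68, SE 0.48) and Hist1h4c (-0.62, SE 0.39) had the next lowest log2 fold changes among H4 genes, with adjusted p values from 0.653 to 0.820. For Hist1h4c, sham values ran from 3.09 to 9.65 CPM and pMCAO values from 1.32 to 5.21. For Hist4h4, the H4 gene outside the large clusters, they ran from 1.27 to 9.65 and from 0.48 to 4.36. The groups overlapped for each of these genes.

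The size of change that the data could show differed by gene. The 95% interval of the log2 fold change lay wholly between -1 and 1 for 4 of the 24 genes, which were Hist1h1c, Hist1h1e, Hist1h2be and Hist1h4d. The median width of the interval was 2.50, so for most of the genes a doubling or a halving was not detectable at this depth and spread.

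**Figure D3:**
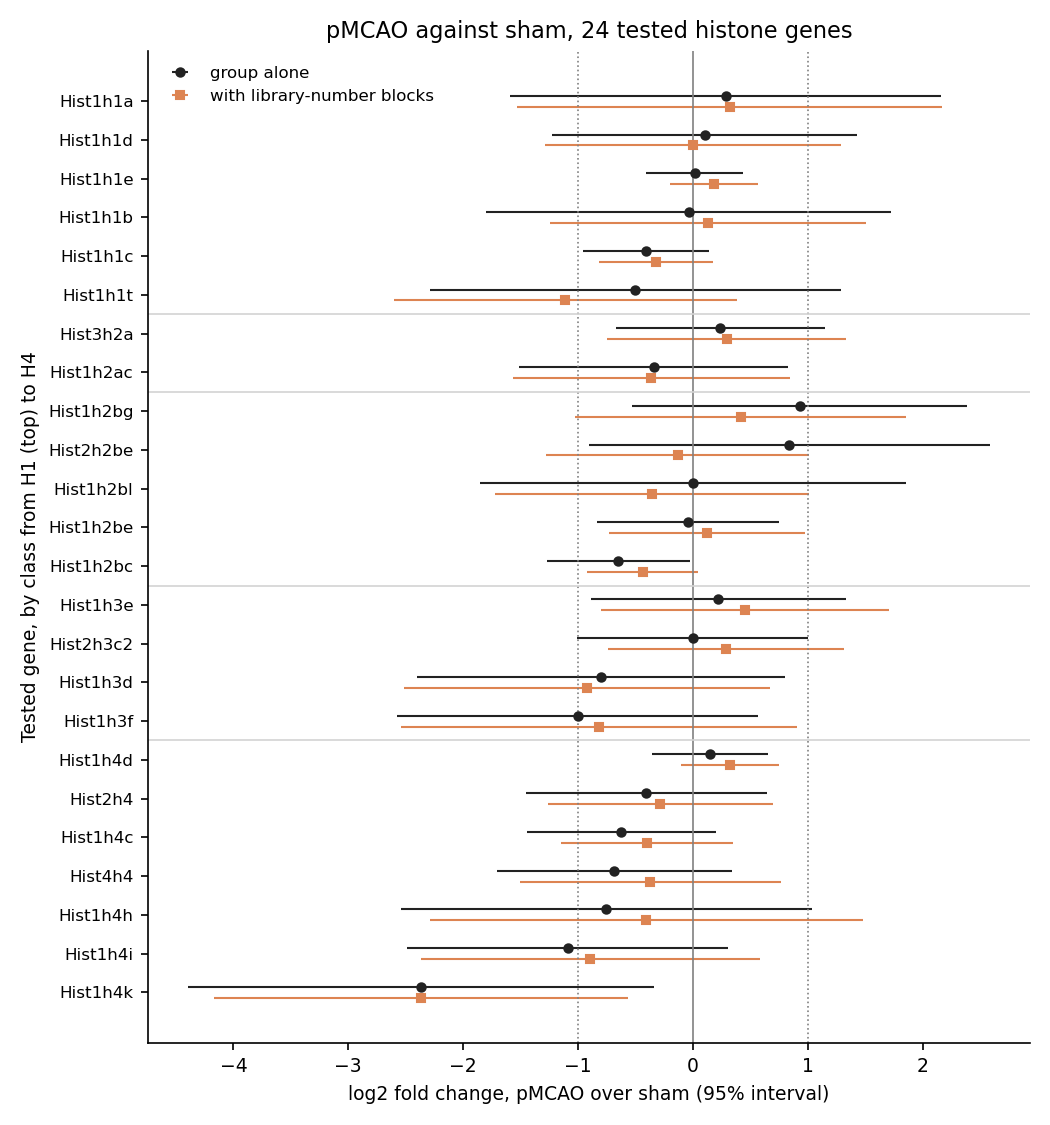
Log2 fold change of pMCAO over sham (horizontal) for the 24 tested genes (vertical, by class), with 95% intervals, from the fit of group alone (black circles) and with library-number blocks (orange squares), and dotted lines at -1 and 1. The intervals are narrow for Hist1h1e, Hist1h4d and Hist1h1c, and widest for the low genes, with Hist1h4k farthest to the left at -2.37.

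Summed over a class, the levels overlapped between the groups. The H1 sum was 81.1 ± 13.6 CPM (n = 7) in sham and 68.3 ± 23.8 CPM (n = 5) in pMCAO, and the H2B sum was 123 ± 24.8 and 90.5 ± 50.4 CPM. The H4 sum was 38.1 ± 14.9 and 27.9 ± 9.50 CPM. H2A and H3 reached at most 7.73 and 11.1 CPM in any sample, with 5.20 ± 1.48 and 5.03 ± 1.43 CPM for H2A and 6.95 ± 1.02 and 6.53 ± 2.63 CPM for H3. All 32 genes summed to between 188 and 292 CPM in sham and between 127 and 295 CPM in pMCAO. The sum in pMCAO replicates 2, 4 and 5, of 176, 127 and 135 CPM, was under that of all 7 sham samples. That of pMCAO replicate 1 was above all of them. Scaled by total count in place of TMM, the mean sums were 236 ± 65.5 CPM (n = 7) and 226 ± 87.1 CPM (n = 5). No test was made of these sums.

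**Figure D4:**
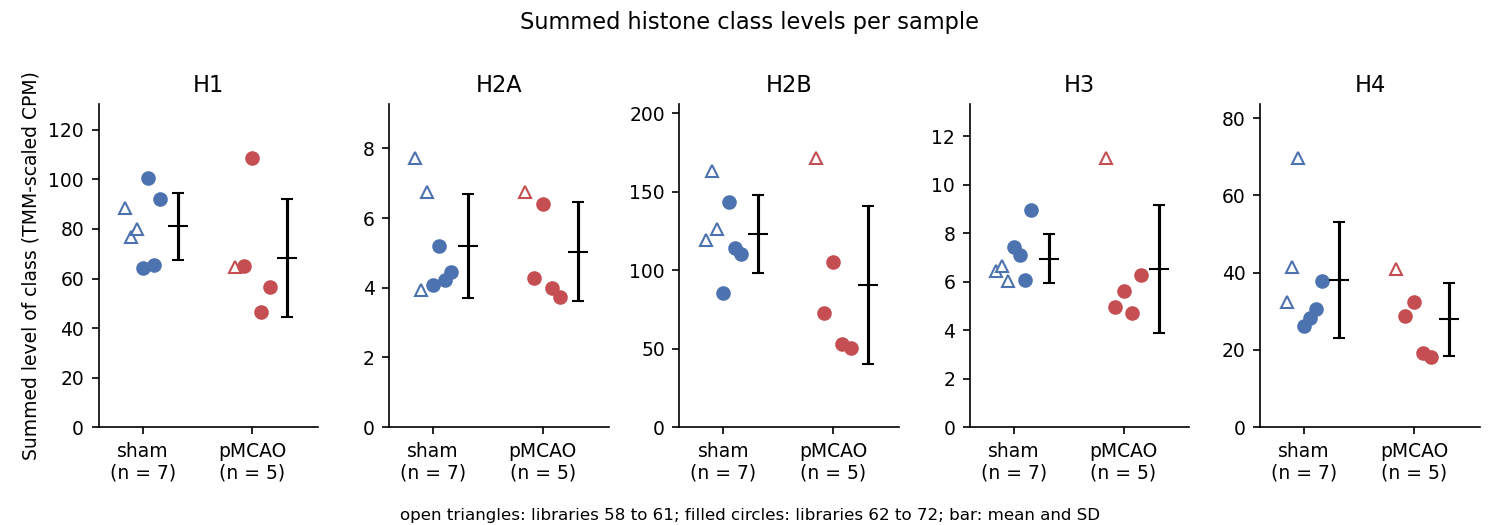
Summed TMM-scaled CPM of each histone class (vertical, from 0) in the 7 sham (blue) and 5 pMCAO (red) samples, 1 point a sample, with the mean and SD in black and with open triangles for libraries 58 to 61. The groups overlap in each class, and in H2B the pMCAO samples run from 50.2 to 171 CPM with library 58 on top.

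Since libraries 58 to 61 stood apart, the genes were also compared between these 4 and the 8 later libraries, with the group in the fit. This split was chosen because these same data separate along it, so its p-values are not calibrated. The calls here and in the lists below describe the split and support nothing else. By limma-voom, 1 of the 24 genes was higher in libraries 58 to 61 (3.28% of all genes) and 1 was lower (8.39% of all genes). The median log2 difference was 0.33 over the 24 genes, with 15 higher and 9 lower, and -0.15 over all genes tested.

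The gene that was higher was Hist2h4, an H4 gene on chromosome 3, named after its value was seen. It held from 3.90 to 7.72 CPM in libraries 58 to 61 and from 0.96 to 4.28 in the later ones, with a log2 difference of 1.33 (SE 0.46, adjusted p 0.050). The gene that was lower was Hist2h2be, with from 0 to 0.80 CPM against 1.56 to 7.51, and a log2 difference of -3.53 (SE 1.13, adjusted p 0.0361). Leaving out each library in turn gave between 0 and 3 called genes, and sham samples alone gave 0, so neither call held in every fit. Hist1h2bc, at 133 ± 21.8 CPM (n = 4) against 79.7 ± 31.5 CPM (n = 8), differed by 0.69 (SE 0.25, adjusted p 0.0586) and did not pass.

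The direction of this difference for the summed genes depended on the scale. By TMM the 32 genes summed to 282 ± 18.8 CPM (n = 4) in libraries 58 to 61 and 205 ± 58.4 CPM (n = 8) later, a log2 ratio of 0.46. By total count they summed to 193 ± 25.9 and 252 ± 80.3 CPM, a log2 ratio of -0.38. Without mitochondrial ribosomal RNA in the total the ratio was 0.06.

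The histone genes were then set beside other genes of the cell cycle. The S phase list (DNA replication genes such as Pcna and Mcm2) summed to 83.3 ± 2.22 CPM (n = 4) in libraries 58 to 61 and 84.8 ± 15.5 CPM (n = 8) later. The list of G2 and mitosis (Mki67, Top2a and others) summed to 45.1 ± 9.57 and 140 ± 60.8 CPM, and its 4 values in libraries 58 to 61 were all below the other 8. From lowest to highest sample the histone sum varied 2.32-fold, the S phase sum 1.73-fold and the sum of G2 and mitosis 7.57-fold. The ratio of the histone sum to that of G2 and mitosis therefore ran from 0.98 (sham replicate 7) to 8.48 (sham replicate 3). By total count, the log2 ratio of libraries 58 to 61 over the later ones was -0.87 for the S phase list and -2.45 for G2 and mitosis, so the histone sum had the smallest of these 3 differences on that scale and not on the TMM scale.

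**Figure D5:**
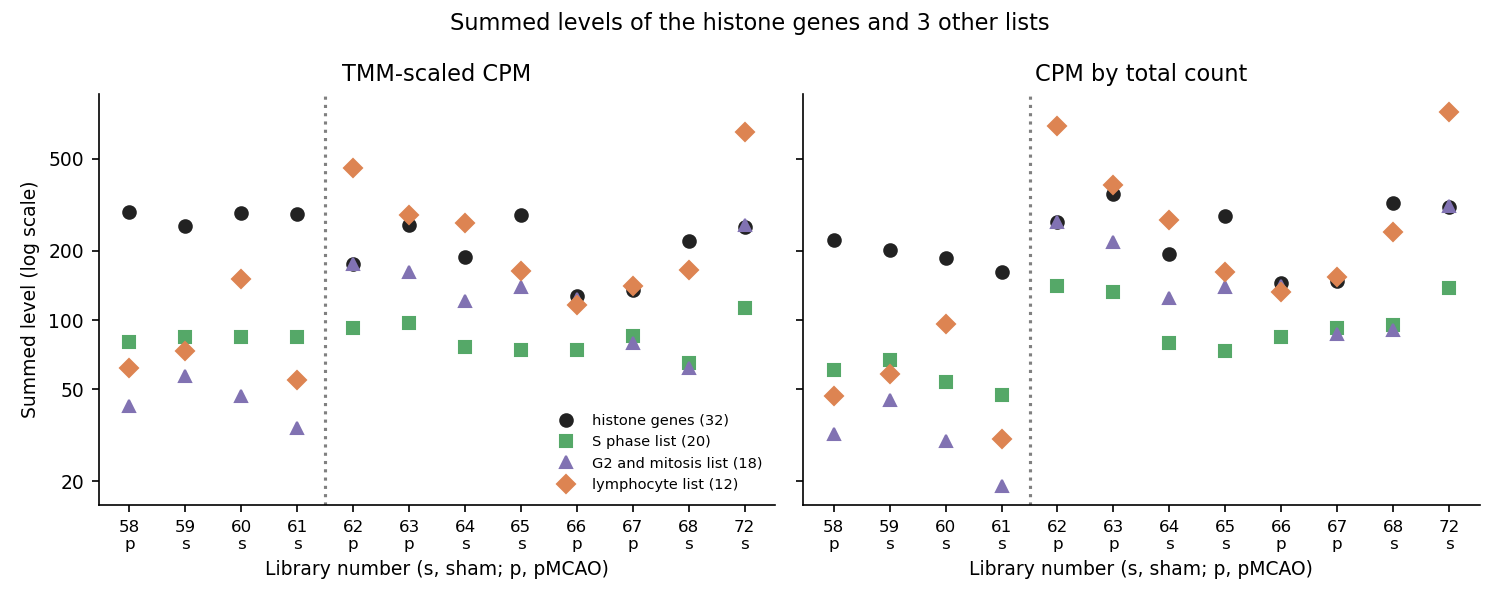
Summed levels (vertical, log scale) of the 32 histone genes and of the lists of S phase, G2 and mitosis, and lymphocyte genes, in the 12 libraries by number (s, sham; p, pMCAO), as TMM-scaled CPM (left) and as CPM by total count (right), with a dotted line after library 61. The G2 and mitosis list and the lymphocyte list are low left of the line in both panels, while the histone genes lie above the later mean there in the left panel and below it in the right.

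Between pMCAO and sham, no gene of the cell cycle lists was called. Of the S phase list, 19 genes were tested, 10 were above 0 (55.2% of all genes), 9 were below and 0 passed by limma-voom. The 3 at an unadjusted p under 0.05 by limma-voom were all higher in pMCAO (4.66% of all genes). The median log2 fold change was 0.01. Uhrf1, which helps to copy DNA methylation at replication, had the smallest p of the list, with 0.167 ± 0.177 CPM (n = 7) in sham and 1.74 ± 0.514 CPM (n = 5) in pMCAO. Its groups did not overlap (0.505% of all genes), and it was higher in pMCAO within each of the 3 blocks (16.3% of all genes). In every sham sample but replicate 6 the floor of 3 counts was above the sham mean, so the size of its change is uncertain. Uhrf1 differed by 3.51 on the log2 scale (SE 0.70, adjusted p 0.110) by group alone and by 3.58 with blocks (adjusted p 0.054), so it did not pass in either fit. Mcm2, a subunit of the replicative helicase, held 1.81 ± 1.67 and 4.25 ± 1.77 CPM, differed by 1.96 on the log2 scale (SE 0.56, adjusted p 0.338) and did not pass. Pcna, the sliding clamp of DNA polymerase, held 17.1 ± 6.20 CPM (n = 7) and 15.6 ± 5.12 CPM (n = 5), a log2 fold change of 0.01 (adjusted p 0.995). Of the list of G2 and mitosis, 16 of 17 tested genes were above 0 (55.2% of all genes) and 0 were called, with a median of 0.47. At an unadjusted p under 0.05 by limma-voom there was 1, higher in pMCAO (4.66% of all genes). That 1 gene was Ccna2, a cyclin of S phase and G2, at 4.04 ± 4.58 and 8.43 ± 3.66 CPM, which differed by 1.98 on the log2 scale (SE 0.80, adjusted p 0.526). Mki67, a proliferation marker, held 34 ± 26 and 38.6 ± 16.6 CPM, a log2 fold change of 0.25 (adjusted p 0.888).

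Genes that make and process histone mRNA were also measured. Of that list, 17 genes were tested, 8 were above 0 and 9 below in pMCAO against sham, and 0 were called, with 0 at an unadjusted p under 0.05. Slbp, which binds the stem-loop, held 12.8 ± 3.10 CPM (n = 7) and 14.5 ± 3.55 CPM (n = 5), a log2 fold change of 0.19 (adjusted p 0.828). Npat, the coactivator of histone gene transcription, held 12.1 ± 5.08 and 15.4 ± 3.11 CPM, a log2 fold change of 0.34 (adjusted p 0.723). Between libraries 58 to 61 and the later ones, limma-voom called 2 of the 17 higher (3.28% of all genes) and 2 lower (8.39% of all genes). Those higher were Zcchc6 (1.44, adjusted p 0.002), a uridylyl transferase, and Ccne2 (1.12, adjusted p 0.030), a cyclin. Those lower were Cdk2 (-1.81, adjusted p 0.044), the partner kinase of Ccne2, and Lsm10 (-3.61, adjusted p 0.039), of the U7 particle that cuts histone mRNA. Of these 4, all but Zcchc6 were named after their values were seen.

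Variant histone genes, which lie outside the clusters and mostly give poly(A)-tailed mRNA, were measured as a contrast. The list also holds Cenpa, the centromeric H3, made mainly in G2, and H2afx, which can also give an mRNA with a stem-loop. Of 9 tested, 4 were above 0 and 5 below in pMCAO against sham, and 0 were called, with 1 at an unadjusted p under 0.05. H3f3b, an H3.3 gene, was the most abundant, with 219 ± 37.0 CPM (n = 7) and 205 ± 44.1 CPM (n = 5), a log2 fold change of -0.12 (adjusted p 0.877). H2afv, an H2A.Z gene, held 12.3 ± 4.72 and 22.4 ± 2.85 CPM, with a log2 fold change of 0.79 (unadjusted p 0.003 by limma-voom, adjusted p 0.338), and did not pass either with blocks (0.88, adjusted p 0.079). Of the histone chaperones, 11 were tested, 9 were above 0 (55.2% of all genes), 2 were below and 0 were called (1 at an unadjusted p under 0.05), with a median of 0.13. Of other RNAs without a poly(A) tail, 4 of 15 were present and 3 were tested, of which 1 was above 0, 2 were below, and 0 were called or had an unadjusted p under 0.05. The most abundant, Rn7sk, held 156 ± 53.0 and 120 ± 29.6 CPM, a log2 fold change of -0.35 (adjusted p 0.695).

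Markers of the cells in the sample moved with the library numbers as well. In bulk RNA, fewer cells of a type and less RNA per cell cannot be told apart. Of the epithelial list, 10 of 10 genes were present in every sample, and its sum ran from 5689 to 13030 CPM, with 11475 ± 1170 CPM (n = 4) in libraries 58 to 61 and 6411 ± 1133 CPM (n = 8) later. Its genes went both ways between these libraries, as log2 differences. Epcam (1.01) and Krt20 (1.22) were called higher in 58 to 61 (3.28% of all genes) and Krt18 (-1.18) and Krt19 (-2.13) lower (8.39% of all genes). The sum of 7 crypt stem cell genes was 23.7 ± 9.40 and 57.4 ± 24.4 CPM, and that of 10 villus enterocyte genes 35611 ± 16545 and 21847 ± 4847 CPM. The 12 lymphocyte genes, of which 6 were at 0 in at least 1 sample, summed to 85.1 ± 44.1 and 281 ± 187 CPM, with a range from 54.8 to 656 CPM over all samples. Of the stromal and endothelial list, 2 of 10 genes were present (Vim and Pecam1), with sums from 2.31 to 13.7 CPM. Between pMCAO and sham, 0 genes of these 5 lists were called by group alone, and their medians lay between -0.21 (epithelium) and 0.76 (stroma and endothelium). At an unadjusted p under 0.05 by limma-voom were 4 of 10 villus genes, 1 crypt gene and 0 of the other lists (1219 of all 14462 genes). With library-number blocks 0 were called, and 4 villus, 4 lymphocyte, 1 crypt and 1 epithelial gene were under that p (1843 of all 14462 genes). The smallest adjusted p of the villus list was then 0.034, without a log2 fold change of 1 in size. The part of these markers in the histone values was not tested.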

How the data were processed

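The authors removed ribosomal RNA by cleavage, made libraries with the Trio kit and sequenced paired reads of 100 bases, which STAR aligned to GRCm38 and featureCounts assigned to genes. The annotation release, the strand setting and the treatment of reads with several matches were not given in the sources used here. The deposited count columns hold whole-number counts per gene. The deposited CPM columns hold those counts per sample total and were checked but not used in tests. Further deposited columns hold the authors' own fold changes, average expression and p-values, and were not used.

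All 12 sample columns were matched to the labels by title. Genes were kept with filterByExpr (minimum count 10, minimum total 15), which left 14462 and removed 1393 genes. TMM factors came from edgeR 4.0.16, and limma-voom of limma 3.58.1 (R 4.3.3) tested the group without covariates, with Benjamini-Hochberg adjustment over all genes tested. The test and thresholds are those of the study, but the day of collection, for which the authors corrected, is not in the labels. The blocks of library numbers came from an earlier analysis of these data that used the authors' fold changes, and whether each is a day is not known. The members and gene lists were chosen with earlier results of these data known. The fits were tested on simulated data. No pair of samples within a group had counts alike within sampling noise (the lowest chi-square divided by its degrees of freedom was 17.7), so each counted as 1.

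Named genes were, in each class, the 2 with the highest mean CPM, the 5 highest and 5 lowest log2 fold changes, the 5 with the smallest p in each fit, and 6 with a position or transcript of interest, 20 in all; in the other lists, the 2 with the highest mean and the 2 with the smallest p, with Slbp, Npat, Mki67 and Pcna. Gene models and stem-loops came from GENCODE M21 and promoters from RefSeq, both on GRCm38. Alternatives were edgeR, DESeq2 (1.42.0), RLE factors, TMM without mitochondrial ribosomal RNA, no low-count filter, sample weights, a replicate block, library-number blocks, and leaving out libraries 58 to 61 or each sample in turn.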

Additional observations from a re-analysis of the deposited data

Results flagged for a closer look

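The H2A gene Hist3h2a stood apart in 1 sample. Its level was 0.415 CPM in sham replicate 2 (library 60), while the other 6 sham samples held 2.26 to 4.46 CPM. The gap was 0.653 of the group's range on the log2(CPM + 0.5) scale. That lowest level came from 2 counts, under the floor of 3 counts, so it cannot be told from 0. Of 52 groups of values examined in this way, 1 had such a sample, where about 2.6 arise by chance.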

How the results depend on the processing

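Between pMCAO and sham, 0 histone genes were called under every alternative run, among them edgeR, DESeq2, RLE factors, no low-count filter, sample weights and leaving out each sample in turn. The replicate numbers did not pair the samples, since the deviations of same-numbered samples correlated at 0.40, -0.22, -0.13, 0.16 and 0.073, and the replicate block gave 0 called genes and 3 at an unadjusted p under 0.05. The sign of the log2 fold change turned in some settings, also for Hist2h2be (0.84), Hist1h3d (-0.80) and Hist1h1t (-0.50), whose values by group alone were not near 0. With library-number blocks, Hist1h2be was at 0.13, Hist2h2be at -0.13 and Hist2h3c2 at 0.29. Without libraries 58 to 61, Hist1h1a was at -0.16, Hist1h1t at 0.14, Hist1h2ac at 0.048 and Hist2h3c2 at 0.020. By edgeR, Hist1h1e was at -0.036, Hist1h3e at -0.089 and Hist2h3c2 at 0.23 (0.26 with blocks), and by DESeq2 Hist1h1e was at -0.053. The replicate block gave 0.095 for Hist1h3d, and TMM without mitochondrial ribosomal RNA gave 0.0026 for Hist2h3c2. The cause was not tested. Leaving out each sample in turn moved Hist1h1a between -0.35 and 0.85, Hist1h1e between -0.067 and 0.15, Hist1h2be between -0.24 and 0.15, Hist1h3e between -0.16 and 0.43, Hist1h4d between -0.016 and 0.29, and Hist2h3c2 between -0.43 and 0.30. Hist1h4k stayed between -3.06 and -1.85 and Hist1h2bc between -0.92 and -0.46.

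Between libraries 58 to 61 and the later ones, the count of 2 called genes was 0 with sham samples only and 1 with RLE factors, and ran from 0 to 3 as each sample was left out. It was 0 without sham replicate 1, 2 or 3 or pMCAO replicate 1, 2 or 4, and 3 without sham replicate 6.

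The limits are depth, shared sequence, group size and the spread between samples. Hist1h2bc, with the most counts, ran from 41.1 to 156 CPM in pMCAO. With 283 counts over 12 samples for Hist1h4k and 12 genes under a mean of 1 CPM, low genes could not show moderate changes. Scaling by total count turned the difference of the summed genes between library numbers from 0.46 to -0.38 on the log2 scale. Between pMCAO and sham, the log2 ratio of the mean sums of all 32 genes was -0.36 by TMM and -0.06 by total count.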
